A study of Mus musculus with 5 samples.

Results

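Basement membrane genes, 31 of the 32285 genes counted, were followed across the cell types of the mouse lung at E18.5, a late day of gestation, and between 2 genotypes of Zswim8. The members were chosen by name: every row whose symbol was one of 31 genes of the basement membrane, and all 31 symbols were found. They comprised 6 type IV collagen chains, 2 multiplexins, 10 laminin chains, 2 nidogens, 2 heparan sulfate proteoglycans, 3 genes of the FRAS/FREM complex and 6 linkers, matricellular proteins and receptors. Whole lungs of 5 embryos were dissociated with collagenase, and single cells were captured for 3′ RNA counting. The controls were 2 Zswim8 heterozygotes (Het, genotype Zswim8+/-) and the test group was 3 Zswim8 knockouts (KO, genotype Zswim8-/-), with 1 library for each embryo and no wild type embryo. The labels do not give the allele, the strain or a Cre driver.

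A basement membrane is a thin sheet of matrix that lies under epithelia and around blood vessels, smooth muscle and nerves. Laminins, each a trimer of an alpha, a beta and a gamma chain, polymerise at the cell surface on integrins and dystroglycan. Type IV collagen forms the covalently crosslinked network, nidogens and perlecan bridge the networks, and agrin, perlecan and the multiplexins carry heparan or chondroitin sulfate chains. In the late fetal lung the basement membranes of the alveolar epithelium and of the capillaries come to lie close together, and gas crosses both. ZSWIM8 is the substrate adaptor of a ubiquitin ligase that acts on Argonaute in the target-directed decay of microRNAs. The libraries measured messenger RNA only, so neither microRNAs nor matrix proteins were read.

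After filters, 3051 to 4634 cells remained per library, with 56608582 to 93708304 UMIs per library over all barcodes and a median of 9857 to 12899 UMIs per cell. A UMI is a unique tag on one captured RNA molecule. Pairs of libraries shared 0 to 7 cell barcodes. Zswim8 itself was at 37.1 and 39.2 CPM (UMIs scaled to the same library total) in the Het libraries and at 38.8, 38.5 and 40.6 CPM in the KO libraries. That difference was a log2 fold change of 0.04 (adjusted p = 0.68, edgeR's quasi-likelihood test), and a 3′ count does not check a deletion that may lie elsewhere in the gene. Y-linked and Xist counts marked both Het libraries and KO replicate 3 as male and KO replicates 1 and 2 as female, so sex was unequal between the groups. Calls of members between the genotypes that ended with sex as a covariate are named with each group of cells below.

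Cells were grouped by clustering, without the members, and named from marker lists. Each class name below stands for cells that are like that type by its markers. AT1 cells are the flat gas-exchange cells of the alveolus and AT2 cells make surfactant. General capillary cells and aerocytes are the vessel cells of the alveolus. Some classes were thin in 1 group: aerocytes numbered 62 and 42 cells in the Het libraries and 1, 3 and 0 in the KO libraries, and AT1 cells numbered 202 and 182 against 32, 44 and 79. Lymphatic cells numbered 5 and 3 in the Het libraries and 37, 20 and 31 in the KO libraries, and pericytes 17 and 24 against 97, 73 and 51. In counts summed over mixed cells, fewer cells of a type and less RNA per cell cannot be told apart.

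The bases before the starts of Col4a1 and Col4a2 are shown because these chains form the most widespread type IV trimer and share a promoter region. They were changed together or apart in different cells below. The genes lie head to head on chromosome 8, with Col4a1 on the minus strand and Col4a2 on the plus strand. Their annotated 5′ ends overlap, with Col4a1 starting at base 11312826 and Col4a2 at base 11312805. The 20 bases between these starts belong to both genes. The bases shown before each start therefore lie within the annotated partner gene. Each sequence is the 250 bases before the start in RefSeq, build GRCm38.p6, written 5′ to 3′ on the gene's own strand. Capitals mark matches to a GC box (GGGCGG or CCGCCC) or a CCAAT box (CCAAT or ATTGG).
Col4a1, chr8:11312827-11313076, minus strand: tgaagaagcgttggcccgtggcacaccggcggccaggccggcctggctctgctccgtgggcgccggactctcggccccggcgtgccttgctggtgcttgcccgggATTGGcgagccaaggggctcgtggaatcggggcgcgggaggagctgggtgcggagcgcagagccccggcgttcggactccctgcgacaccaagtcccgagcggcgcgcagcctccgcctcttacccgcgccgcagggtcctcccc
Col4a2, chr8:11312555-11312804, plus strand: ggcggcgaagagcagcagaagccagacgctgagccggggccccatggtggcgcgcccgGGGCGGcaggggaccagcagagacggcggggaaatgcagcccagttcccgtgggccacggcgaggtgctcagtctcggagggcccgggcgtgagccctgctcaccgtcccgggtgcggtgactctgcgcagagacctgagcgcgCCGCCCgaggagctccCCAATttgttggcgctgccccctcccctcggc
The Col4a1 window held 1 CCAAT match, 145 bases before the start, and 0 GC box matches. The Col4a2 window held 2 GC box matches, 192 and 48 bases before the start, and 1 CCAAT match, 32 bases before it. Over the 23 members found in the set of RefSeq promoters used here, which gave 30 windows, 15 windows held a GC box, 10 a CCAAT box and 0 a TATA box (TATAAA or TTTATA, either strand). Of 32851 windows of all genes, 32.7% held a GC box, 33.8% a CCAAT box and 12.4% a TATA box. 2 other pairs were also head to head: Col4a3 and Col4a4 on chromosome 1, with 71 bases between their starts, and Col4a5 and Col4a6 on chromosome X, with 1308 bases.

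Sites for miR-29 are shown because this family is known to act on collagen messages and because ZSWIM8 acts on microRNAs. The mature sequences, with the seed (bases 2 to 8) in capitals, share that seed.
mmu-miR-29a-3p: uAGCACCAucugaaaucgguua
mmu-miR-29b-3p: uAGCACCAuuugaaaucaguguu
mmu-miR-29c-3p: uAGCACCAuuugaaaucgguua
Matches to the seed (TGGTGCT, in capitals below) were searched in the longest annotated 3′ UTR of each gene in GENCODE M21. The first match of each of 6 members is given with its flanks.
Col4a1: cgtcacaacaTGGTGCTactcccc
Col4a2: aaggccacgtTGGTGCTtatcctt
Col4a5: ctcccaccaaTGGTGCTaatatcc
Col15a1: atccacatatTGGTGCTagattct
Lamc1: tctgacacacTGGTGCTattaatt
Hmcn1: aacttgaaaaTGGTGCTgtactct
All 6 type IV collagen messages held a match, 13 matches in all: 4 in Col4a3, 3 in Col4a5, 2 each in Col4a2 and Col4a4, and 1 each in Col4a1 and Col4a6. Of the 10 laminin chains, 1 did, Lamc1. The other members with a match were Col15a1, Agrn, Fras1, Frem1, Hmcn1 and Dag1, which made 13 of 31 members. Over all genes 13% of 21004 had a match, and 19.6% of the 9445 genes whose 3′ UTR was as long as those of the type IV collagens (971 to 4708 bases). The laminin 3′ UTRs were short, with a median of 204 bases against 1346.5 for the type IV collagens and 953 for all genes.

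The members were placed in epithelium, endothelium and mesenchyme and were nearly absent from immune cells. Summed over the 31 genes, they took 1.26% ± 0.150 (SD, n = 5) of the UMIs of mesothelial cells, the covering layer of the lung, and 0.911% ± 0.129 (n = 5) in adventitial fibroblasts. In the mesothelial class 70.2% to 82.4% of cells per library carried at least 3 markers of another lineage, and their part in its levels, the highest for 8 members, was not tested. In aerocytes they took 1.13% ± 0.0159 (n = 2, both Het). The share was 0.672% ± 0.121 (n = 5) in AT1 cells, 0.580% ± 0.0435 in general capillary cells and 0.0149% ± 0.00175 in immune cells. Red-cell barcodes, which should lack these messages and measure free RNA, held 0.0190% ± 0.00337, so the immune share was at the background. A few genes made up much of the largest shares. Sparc was at 6811 CPM in mesothelial cells and 6200 CPM in adventitial fibroblasts, and Col4a1 and Col4a2 were at 4154 and 2443 CPM in aerocytes. The order of classes by share is therefore not one of all members alike. By edgeR's test of each lineage against each of the other 3, with a log2 difference above 1, 13 of 31 members were highest in 1 lineage, against 37% of 16692 genes. These were Lama3, Lama5, Lamb3, Tinagl1 and Dag1 in the epithelium, Col15a1, Col18a1 and Lama1 in the endothelium, and Lama2, Frem1, Frem2, Sparc and Ntn4 in the mesenchyme. The mesenchymal sums included the mesothelial class. Frem2 was at 544 CPM in that class and at 45.8 CPM in AT2 cells, the next class, so its mesenchymal call does not place it in the stroma. With cells that carried markers of another lineage left out, 22 members were highest in 1 lineage. The share of all genes was not counted there, so the 22 cannot be read as particular to the members. The heat map of levels by cell class shows the members by row.

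**Figure D1:**
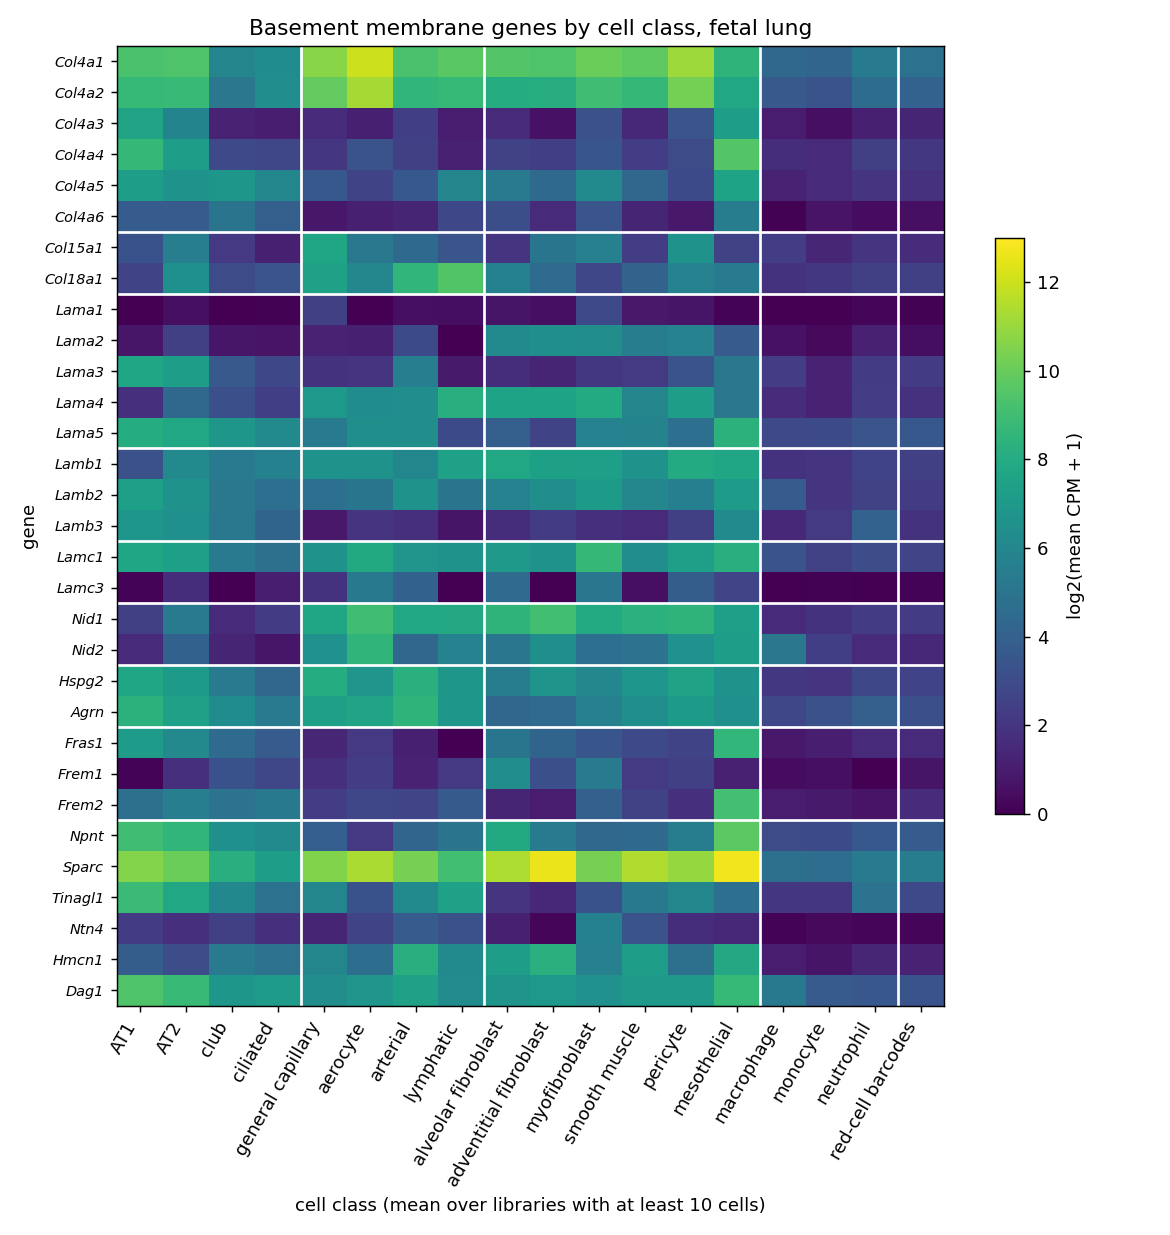
Mean level of each of the 31 genes (rows, ordered by role) in 17 cell classes and in red-cell barcodes (columns), as log2(mean CPM + 1) over libraries with at least 10 cells of the class. Col4a1 and Col4a2 are brightest in aerocytes, the rows of Col4a3 and Col4a4 are bright in AT1 and mesothelial cells, and the 3 immune columns are close to the red-cell column, apart from Nid2 in macrophages.

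Among the type IV collagens, Col4a1 and Col4a2 stood at 4154 CPM ± 92.5 and 2443 CPM ± 19.7 in aerocytes (n = 2). The next class for both was pericytes, at 2219 ± 452 and 1235 ± 235 CPM (n = 5), and its range did not reach that of aerocytes. Col4a3 and Col4a4, the chains that join Col4a5 in the trimer of the kidney glomerulus and the alveolus, were in other cells. Col4a3 was at 190 CPM ± 73.2 in AT1 cells and at 155 CPM ± 56.1 in mesothelial cells, ranges that overlapped over the 5 libraries. In the Het libraries alone AT1 cells, at 274 and 257.5 CPM, lay above mesothelial cells, at 215 and 79.8 CPM, and in the KO libraries the classes overlapped. Col4a4 was at 745 CPM ± 276 in mesothelial cells and 407 CPM ± 140 in AT1 cells, overlapping in the Het libraries and apart in the KO libraries (581 to 966 against 236 to 351 CPM), and both genes were next in AT2 cells at 57.1 and 148 CPM. Col4a5 and Col4a6 were also highest in mesothelial cells, at 186 CPM ± 23.1 and 42.5 CPM ± 6.16.

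Genes of a head-to-head pair did not keep 1 ratio of UMIs over the classes. Such a ratio depends on how each 3′ end is captured, so only its change between classes is read. The median over libraries of Col4a1 to Col4a2 ran from 1.01 in ciliated cells (0.842 to 1.08 over 5 libraries) to 2.68 in alveolar fibroblasts (2.52 to 3.10), and those ranges did not overlap. In general capillary cells it was 1.75 (1.65 to 1.89) and in AT1 cells 1.51 (1.38 to 1.59). Col4a3 to Col4a4 was 0.457 in AT1 cells (0.415 to 0.509) and 0.205 in mesothelial cells (0.199 to 0.226), also apart. The nidogens moved in the same manner, with Nid1 to Nid2 at 1.08 in mesothelial cells (0.768 to 1.78) and 11.0 in smooth muscle (8.56 to 12.3).

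The multiplexins, whose C-terminal fragments include endostatin from Col18a1, were highest in the endothelium. Col18a1 was at 715 CPM ± 48.7 in lymphatic cells (n = 3, all KO) and 371 CPM ± 117 in arterial cells (n = 5), and these ranges were apart. Col15a1 was at 208 CPM ± 72.8 in general capillary cells and at 100.0 CPM ± 64.3 in pericytes, which overlapped. In the pericyte class 38.1% to 54.2% of cells per library carried at least 3 markers of another lineage, and their part in its levels was not tested.

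Laminin chains differed by lineage. Lama3 and Lamb3, chains of the anchoring laminin of epithelia, were at 209 CPM ± 36.4 and 112 CPM ± 33.1 in AT1 cells, with AT2 cells next at 150 and 90.3 CPM and overlapping. Lama5, the broad alpha chain of adult epithelia, was at 322 CPM ± 140 in mesothelial and 267 CPM ± 47.1 in AT1 cells. Lama2, the alpha chain of muscle and stroma, was at 87.0 CPM ± 11.7 in adventitial fibroblasts, 84.3 ± 28.4 in myofibroblasts and 74.3 ± 44.6 in alveolar fibroblasts. The order of these depended on the genotype: in alveolar fibroblasts the Het libraries, at 130.5 and 114 CPM, lay above the adventitial range of 67.8 to 99.3 CPM, and the KO libraries, at 33, 41.7 and 52.7 CPM, lay below it. Lama4, the alpha chain of vessels, was at 285 CPM ± 27.3 in lymphatic cells (n = 3) and 246 CPM ± 44.9 in myofibroblasts. Lamc1, the gamma chain of most laminins, was highest in myofibroblasts at 400.1 CPM ± 93.4, and Lamb1 in pericytes at 245 CPM ± 72.8, both overlapping the next class. Lama1, the early embryonic alpha chain, was scarce, with 6.30 CPM ± 2.37 in myofibroblasts as its highest level.

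Over the whole list, 9 of 31 members had a highest class whose range did not meet that of the second, none of them a laminin chain. Nid2 was at 366 CPM ± 57.5 in aerocytes (n = 2), above 155 ± 55.5 in mesothelial cells. In the FRAS/FREM complex, which anchors fetal epithelia to the stroma, Frem2 was at 544 CPM ± 202 in mesothelial cells and 45.8 ± 18.2 in AT2 cells, Fras1 at 394 ± 82.7 and 145 ± 11.3 in mesothelial and AT1 cells, and Frem1 at 86.3 ± 11.8 in alveolar fibroblasts and 41.8 ± 20.5 in myofibroblasts. Tinagl1, a matricellular ligand, was at 470 CPM ± 105 and Dag1, the dystroglycan receptor, at 689 ± 97.8 in AT1 cells, each above AT2 cells. Sparc, a collagen chaperone of the matrix, was at 6811 CPM ± 740 in mesothelial cells and 6200 ± 1117 in adventitial fibroblasts, which overlapped. Hspg2 (perlecan) and Agrn (agrin) were highest in arterial cells, at 304 ± 53.5 and 349 ± 55.4 CPM, overlapping the next class. Npnt, a ligand of integrin alpha 8, was at 853 CPM ± 286 in mesothelial cells, Ntn4, a netrin that disrupts laminin networks, at 51.5 ± 26.5 in myofibroblasts, and Hmcn1, the giant linker hemicentin, at 306 ± 39.6 in adventitial fibroblasts.

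Between the genotypes, alveolar fibroblasts, the lipid-rich stromal cells next to AT2 cells, held the most members that were lower in the KO. Of 23 members that passed the count filter there, 11 fell and 0 rose by edgeR's quasi-likelihood test at an adjusted p under 0.05. Over the 9882 genes tested, 4.1% were called, 3.32% lower and 0.779% higher. The groups did not overlap for 14 of the 23, against 37.1% of genes. The median log2 fold change was -0.54 over the 23 members and 0.01 over all genes. The 8 members that did not pass the filter were too low to test.

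Laminin alpha, beta and gamma chains were all among the 11, and values here are CPM scaled between libraries by TMM (trimmed mean of M-values). Lama2 was at 128 and 114 CPM in the Het libraries and at 35.4, 41.2 and 50.6 CPM in the KO libraries. All 3 KO libraries lay far under both Het libraries, a log2 fold change of -1.49 (SE 0.16, adjusted p = 0.000592). Lama4 was at 251 and 225 against 158, 157 and 147 CPM, log2 fold change -0.63 (adjusted p = 0.010), and the groups did not overlap. Lamb1 was at 261 and 279 against 205, 149 and 162 CPM, log2 fold change -0.65 (adjusted p = 0.025). Lamb2, a beta chain of vessel and synaptic laminins, was at 76.5 and 67.4 against 37.2, 30.4 and 49.7 CPM, log2 fold change -0.86 (adjusted p = 0.034). Neither beta chain overlapped between the groups, and the same held for both gamma chains. Lamc1 was at 170 and 164 against 104, 101 and 119 CPM, log2 fold change -0.62 (adjusted p = 0.017). Lamc3 was at 25.2 and 61.3 against 5.40, 10.3 and 10.3 CPM, log2 fold change -2.28 (adjusted p = 0.0050), with Het libraries far apart from each other.

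Of the network and linker genes of alveolar fibroblasts, Col4a1, Nid1, Hspg2, Sparc and Hmcn1 fell. Col4a1 was at 969 and 893 CPM in the Het libraries and at 673, 590 and 517 CPM in the KO libraries, log2 fold change -0.65 (adjusted p = 0.024). Its partner Col4a2 had groups that did not overlap (362 and 288 against 253, 212 and 206 CPM) and missed the threshold, at -0.54 (adjusted p = 0.054). Nid1 was at 427 and 424 against 282, 314 and 271 CPM, log2 fold change -0.56 (adjusted p = 0.024). Hspg2, which tethers growth factors on its heparan sulfate, was at 78.0 and 49.0 against 23.4, 31.5 and 28.8 CPM, log2 fold change -1.18 (adjusted p = 0.0098). Sparc was at 3405 and 4255 against 1738, 2335 and 1833 CPM, log2 fold change -0.96 (adjusted p = 0.0078). Hmcn1 was at 194 and 202 against 98.4, 150 and 125 CPM, log2 fold change -0.67 (adjusted p = 0.035). In each of these the Het libraries were above every KO library. The members that did not pass the test included Frem1 at 0.02, Col4a5 at 0.09 and Npnt at 0.38, the last with every KO library above both Het libraries (adjusted p = 0.16).

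**Figure D2:**
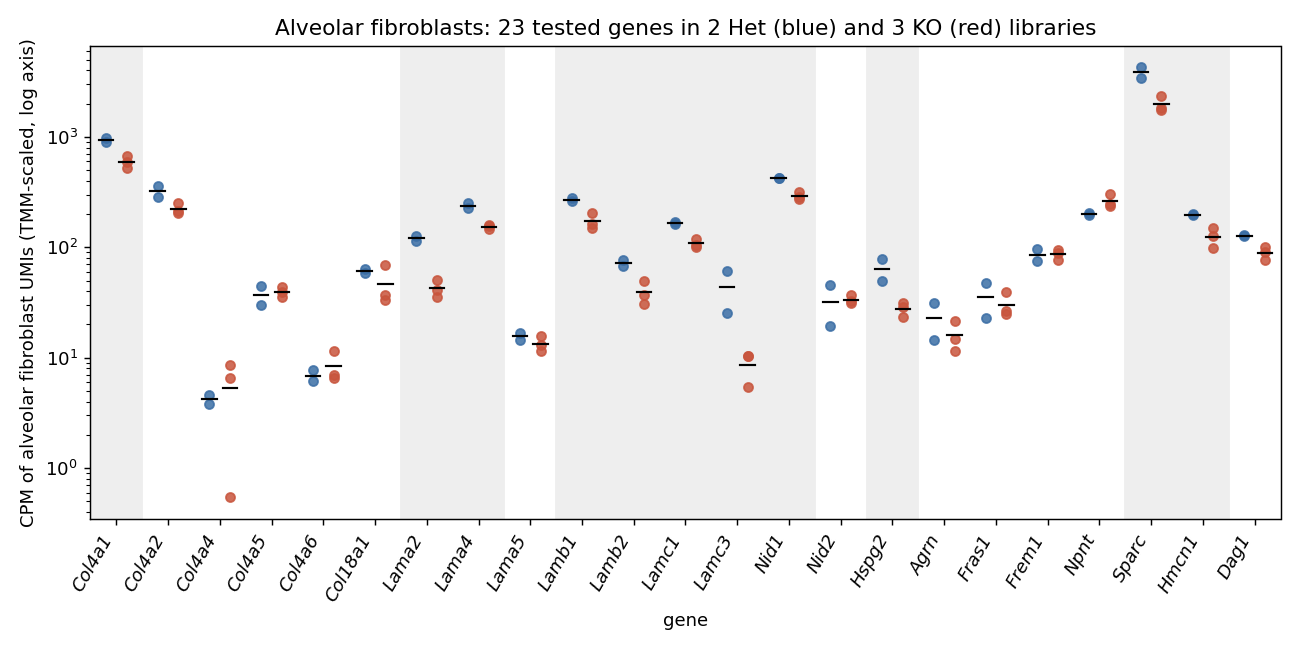
Level of the 23 tested members in alveolar fibroblasts (TMM-scaled CPM, log axis), with 1 point per library (2 Het in blue, 3 KO in red) and bars at the group means; grey bands mark the 11 genes called. In every banded gene the lowest Het point is above the highest KO point, while Frem1, Nid2 and Col4a5 have overlapping points.

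The alveolar fibroblast markers themselves, all 8 detected, summed to 902 to 1029 CPM in the Het and 955 to 1259 CPM in the KO libraries. Other lists moved with the fall. Adventitial fibroblast markers (9 of 9 detected) summed to 1569 and 1937 against 961, 1339 and 1268 CPM, myofibroblast markers (7 of 8 detected in every library) to 750 and 859 against 418, 490 and 487, and AT1 markers (10 of 10) to 714 and 849 against 163, 218 and 252. Their part in the result was not tested. With cells that carried markers of another lineage left out, all 11 members remained called. Without the count filter 5 were, Lama2, Lama4, Lamc3, Hspg2 and Sparc. With sex as a covariate 1 remained, Lama2, which was also the only one of the 11 called in each of 11 alternatives. Leaving out 1 library gave 3 calls without Het replicate 1, 2 without Het replicate 2, 13 without KO replicate 1, 7 without KO replicate 2 and 6 without KO replicate 3. KO replicate 3, male like both Het libraries, lay below both in all 11 genes. That follows from groups that do not overlap in any of the 11, and it is no test of sex.

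Some genes that make, crosslink or remodel the matrix were also called lower in alveolar fibroblasts, where 3.32% of all genes were. Of lists assembled for this purpose, collagen processing and crosslinking had 5 lower and 0 higher of 19 tested, remodelling 5 lower of 14, other components of the interface 7 lower of 19, receptors 1 lower of 16 and dystroglycan glycosylation 0 of 13. The genes named next were chosen after their values were seen. Lox, which crosslinks collagen, was at 1717 and 1733 CPM in the Het libraries and at 940.4, 891 and 934 CPM in the KO libraries (log2 fold change -0.90, adjusted p = 0.0022). Timp2, a protease inhibitor, was at 313 and 366 against 157, 173 and 159 CPM (log2 fold change -1.06, adjusted p = 0.000774). Fbln2, a fibulin that binds nidogen and perlecan, was at 93.3 and 134 against 17.4, 33.6 and 32.1 CPM (log2 fold change -2.01, adjusted p = 0.000774). None of the 3 overlapped between the groups.

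In AT1 cells the pair Col4a3 and Col4a4 was lower in the KO. Col4a3 was at 279 and 250 CPM in the Het libraries and at 183, 99.9 and 143 CPM in the KO libraries, a log2 fold change of -0.98 (SE 0.17, adjusted p = 0.019, edgeR). Col4a4 was at 548 and 547 against 369.7, 229 and 344 CPM, a log2 fold change of -0.83 (SE 0.16, adjusted p = 0.026). Every KO library was below both Het libraries for both genes. They were 2 of 21 members tested, both lower, where 0.576% of 7470 genes were called, 0.415% lower and 0.161% higher. The third chain of their trimer, Col4a5, was at 155 and 152 against 199.7, 106 and 152 CPM and overlapped (log2 fold change -0.10, adjusted p = 0.91).

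The other AT1 members gave no calls. The median over the 21 was -0.25, against 0.01 over all genes, and 18 of 21 had a value below 0. The groups did not overlap for 12 of 21 members, against 26.1% of genes. Beside the called pair these were Col4a2 (-0.56), Sparc (-0.49), Tinagl1 (-0.47), Npnt (-0.46), Col4a1 (-0.44), Lamb3 (-0.44), Lama3 (-0.42) and Dag1 (-0.25), with values below 0, and Frem2 (0.59) and Hmcn1 (0.93), with adjusted p values from 0.12 to 0.57. AT1 markers (10 of 10 detected) summed to 14123 and 15526 CPM in the Het and 11744, 10246 and 12438 CPM in the KO libraries, and AT2 markers (10 of 10) to 2249 and 2212 against 2434, 9512 and 2095 CPM. Their part in the result was not tested. With mixed cells left out, Col4a3 was at -0.91 (adjusted p = 0.0011) and Col4a4 at -0.72 (adjusted p = 0.0043). Neither was called with sex as a covariate, without Het replicate 1 or without Het replicate 2.

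Over all cells together 4 of 31 members were called, against 4.23% of 17722 genes, 1.2% higher and 3.04% lower. Col4a3 was the member that fell, at 30.8 and 29.9 CPM in the Het libraries and at 18.7, 13.2 and 18.3 CPM in the KO libraries (log2 fold change -0.86, adjusted p = 0.042). Its groups did not overlap. AT1 cells held 26.9% and 27.2% of all Col4a3 UMIs in the Het libraries and 5.56%, 11.1% and 10.8% in the KO libraries, while mesothelial cells held 11.5% and 12.2% against 35.8%, 36.2% and 31.4%. In mesothelial cells Col4a3 was at 210.1 and 79.8 against 121, 167 and 192 CPM, which overlapped (log2 fold change 0.18, adjusted p = 0.95). The 3 that rose over all cells were Col15a1, Col18a1 and Frem2. Col15a1 was at 17.8 and 21.3 CPM in the Het libraries and at 41.5, 31.5 and 30.6 CPM in the KO libraries (log2 fold change 0.82, adjusted p = 0.048), and Col18a1 at 21.4 and 26.2 against 74.8, 52.6 and 60.5 CPM (log2 fold change 1.39, adjusted p = 0.021). Pericytes held 0% and 3.45% of all Col15a1 UMIs in the Het libraries and 16.7%, 10.7% and 9.42% in the KO libraries. Their part in its rise was not tested. None of the 4 was called with sex as a covariate, without Het replicate 1, without Het replicate 2 or without KO replicate 3.

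The multiplexins were called higher in both endothelium and epithelium. In general capillary cells Col15a1, a chondroitin sulfate collagen that ties basement membranes to stromal fibrils, was at 126 and 138 CPM in the Het libraries and at 294, 236 and 245 CPM in the KO libraries (log2 fold change 0.97, SE 0.13, adjusted p = 0.0052). Col18a1 was at 104 and 139.8 against 238, 178 and 203 CPM (log2 fold change 0.76, SE 0.16, adjusted p = 0.046). Neither overlapped between the groups. These were the 2 called of 20 members tested, where 1.85% of 10394 genes were called, 0.385% higher and 1.46% lower. Markers of lymphatic cells, the class with the most Col18a1, summed to 606 and 676 against 538, 545 and 594 CPM there (5 of 6 detected in every library). Aerocyte markers (7 of 8 detected in every library) summed to 749.7 and 699 against 468, 356 and 464 CPM, and their part was not tested. Col15a1 was called in 9 of 11 alternatives, the exceptions being sex as a covariate and leaving out Het replicate 1, and Col18a1 was called in 4 of 11, not with sex as a covariate.

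In the epithelium both were also higher. Col18a1 was at 25.7 and 25.1 CPM in the Het libraries and at 119, 87.6 and 93.3 CPM in the KO libraries (log2 fold change 1.97, SE 0.15, adjusted p = 0.0016), and it was called in each of 13 alternatives. Col15a1 was at 17.8 and 17.0 against 61.9, 35.8 and 43.2 CPM (log2 fold change 1.42, SE 0.22, adjusted p = 0.0094). The KO libraries were above both Het libraries in each. Markers of the endothelium, the lineage where both genes are highest, were lower in the KO epithelial sums: all 10 were detected, at 955 and 1219 against 352, 242 and 431 CPM. With the epithelial cells that carried markers of another lineage left out, Col15a1 was at 2.06 (adjusted p = 0.0054) and Col18a1 at 1.73 (adjusted p = 0.0011).

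In AT2 cells Col18a1 was at 40.8 and 35.3 CPM in the Het libraries and at 148, 115 and 107 CPM in the KO libraries (log2 fold change 1.69, adjusted p = 0.00016). Col15a1 was at 27.9 and 24.9 against 77.7, 47.1 and 49.3 CPM (log2 fold change 1.12, adjusted p = 0.0062), a call that ended with sex as a covariate (adjusted p = 0.077). Neither overlapped. The AT2 class joined 2 clusters, and the one led by Cldn18 held 44.6% and 57.9% of it in the Het libraries and 80.2%, 83.9% and 77.0% in the KO libraries. In that cluster alone, with mixed cells left out, Col18a1 had 21 and 33 UMIs in the Het libraries and 203, 358 and 346 UMIs in the KO libraries, or 20.1 and 31.7 against 85.9, 129 and 124 CPM (log2 fold change 2.13). Col15a1 was at 14.4 and 10.6 against 50.8, 37.1 and 35.5 CPM (log2 fold change 1.71, adjusted p = 0.0026). Both were thus higher in every KO library in these cells as well.

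In myofibroblasts, the stromal cells at the tips of future septa, Col15a1 was lower in the KO. It was at 80.5 and 75.6 CPM in the Het libraries and at 34.6, 18.2 and 42.3 CPM in the KO libraries (log2 fold change -1.24, adjusted p = 0.049). All KO libraries were below both Het libraries. Col15a1 was the only member called higher in some fits, 5 of the 11 where it could be tested, and lower in another. In adventitial fibroblasts it was at 8.49 and 128 CPM in the Het and 13, 2.98 and 6.27 CPM in the KO libraries (adjusted p = 0.092), with Het replicate 2 far above the rest.

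By the test of genotype by lineage, the effect differed between lineages for Col15a1 (adjusted p = 0.0171) and Col18a1 (adjusted p = 0.000651), 2 of 9 members called, where 9.35% of 16692 genes were. Col15a1 had log2 fold changes of 1.42 in epithelium, 0.72 in endothelium, -0.28 in mesenchyme and -0.14 in immune cells. Col18a1 had 1.97, 1.21, -0.22 and 1.58. The immune value of Col18a1 rested on 26 and 25 UMIs against 42, 66 and 66, at 0.929 and 0.866 against 2.91, 3.00 and 2.26 CPM (adjusted p = 0.0068), all under its level in red-cell barcodes (4.50 CPM). It was 1 of 25 members tested in immune cells, where 8.24% of genes were called, 3.5% higher and 4.74% lower, and it was not called with sex as a covariate or without either Het library.

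**Figure D3:**
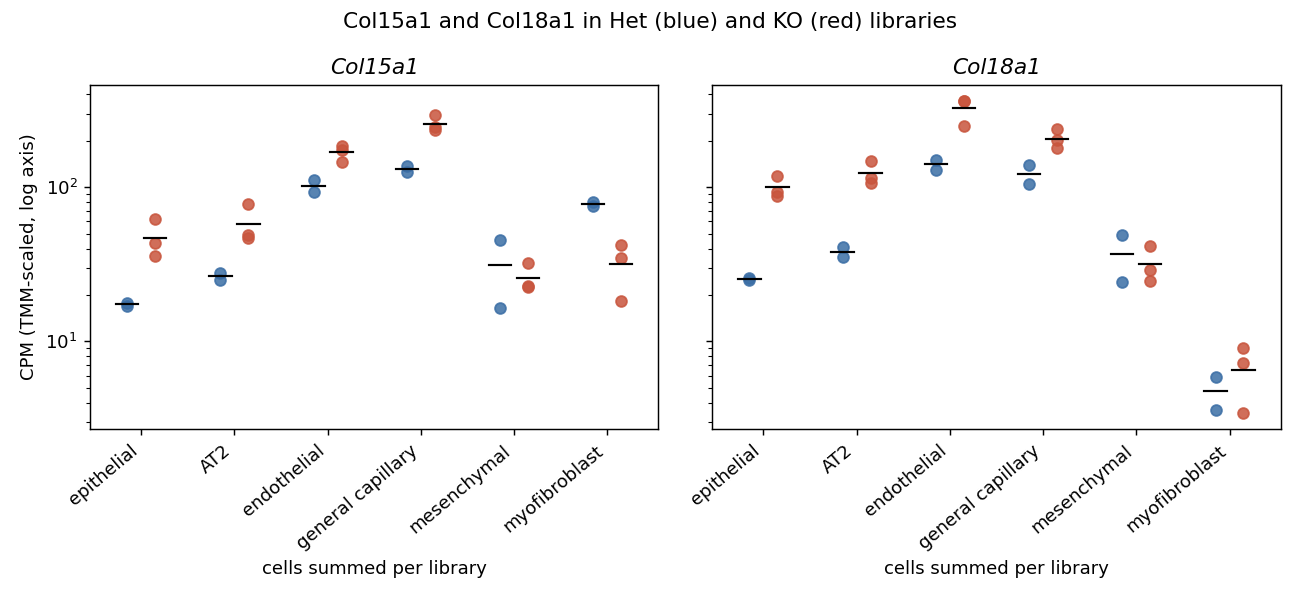
Level of Col15a1 (left) and Col18a1 (right) in 6 sums of cells (TMM-scaled CPM, log axis), with 1 point per library (2 Het in blue, 3 KO in red) and bars at the group means. The KO points lie above the Het points in epithelial, AT2, endothelial and general capillary cells for both genes, and below them in myofibroblasts for Col15a1.

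In the endothelium as a whole, 8 of 29 members were called, 6 lower and 2 higher, against 6.46% of 11864 genes, 4.34% lower and 2.12% higher. Col4a1 was at 1987 and 1725 CPM in the Het libraries and at 1271, 1297 and 1241 CPM in the KO libraries (log2 fold change -0.55, adjusted p = 0.0084). Col4a2 was at 1114 and 960.0 against 750.5, 760.4 and 719 CPM (log2 fold change -0.48, adjusted p = 0.017). Nid2 was at 122 and 107 against 78.6, 76.4 and 72.3 CPM (log2 fold change -0.59, adjusted p = 0.013). The genotypes did not overlap in any of these 3, whose highest class was the aerocyte. Lamc3, also highest in aerocytes, was at 10.4 and 5.85 against 4.68, 4.16 and 3.73 CPM and was not called (log2 fold change -0.97, adjusted p = 0.12). Lama5 was at 63.6 and 53.7 against 34.5, 38.3 and 34.8 CPM (log2 fold change -0.71, adjusted p = 0.013). Sparc was at 1585 and 1706 against 1215, 1287 and 1084 CPM (log2 fold change -0.46, adjusted p = 0.023). Col4a4 was low, at 5.30 and 6.64 against 1.48, 2.08 and 1.86 CPM (log2 fold change -1.70, adjusted p = 0.023). In red-cell barcodes Col4a4 was at 3.29 CPM, above every KO value, so its fall lies near the background. Lama5, Sparc and Col4a4 also lay below both Het libraries in every KO library. AT1 markers, of the class where Col4a4 and Lama5 are among their highest, summed to 347 and 350.1 CPM in the Het and 149.7, 128 and 152 CPM in the KO endothelium (10 of 10 detected), and their part was not tested.

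The multiplexins were the 2 called higher there. Col15a1 was at 93.6 and 111 CPM in the Het libraries and at 175, 185 and 146 CPM in the KO libraries (log2 fold change 0.72, adjusted p = 0.015). Col18a1 was at 129.7 and 151 against 363, 249 and 364 CPM (log2 fold change 1.21, adjusted p = 0.0063). The groups did not overlap for 14 of 29 members, against 40.6% of genes. With sex as a covariate 1 call remained, Col18a1. No member was called without Het replicate 1, 2 without Het replicate 2 and 3 without KO replicate 3.

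Aerocytes, few in the KO libraries, were then left out together with lymphatic cells, an alternative added after seeing the data. Aerocyte markers (7 of 8 detected in every library) summed to 1004 and 1002 CPM in the Het and 454, 334 and 419.9 CPM in the KO endothelium, and lymphatic markers (6 of 6) to 639.9 and 737 against 1487, 791 and 1701 CPM. Without these cells 2 members were called, Col15a1 at 0.86 and Col18a1 at 0.86 (adjusted p = 0.0047 for each). Col4a1 was then at 1780 and 1553 against 1338, 1346 and 1361 CPM (log2 fold change -0.31, adjusted p = 0.11), Col4a2 at -0.20 (adjusted p = 0.31) and Nid2 at -0.19 (adjusted p = 0.47). Lama5 was at -0.46 (adjusted p = 0.13), Sparc at -0.24 (adjusted p = 0.19) and Col4a4 at -1.51 (adjusted p = 0.059). All 6 kept their sign, and each but Col4a4 was smaller by more than 1.5 times on the log2 scale.

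In the epithelium 6 of 31 members were called, 3 higher and 3 lower, against 7.14% of 15033 genes, 2.67% higher and 4.47% lower. The groups did not overlap for 18 of 31, against 44.7% of genes. Besides the multiplexins, Frem2, a membrane protein of the FRAS/FREM complex, rose, and Nid1, Nid2 and Lama1 fell. Frem2 was at 29.5 and 23.4 CPM in the Het libraries and at 66.1, 46.5 and 50.8 CPM in the KO libraries (log2 fold change 1.03, adjusted p = 0.013), with no overlap. Nid1 was at 33.8 and 45.1 against 19.9, 17.0 and 27.1 CPM (log2 fold change -0.87, adjusted p = 0.041). Nid2 was at 14.2 and 19.7 against 7.47, 5.41 and 8.98 CPM (log2 fold change -1.21, adjusted p = 0.019). Both nidogens were below both Het libraries in every KO library. The endothelial marker list fell with them in these sums (955 and 1219 against 352, 242 and 431 CPM), its part was not tested, and with mixed cells left out Nid1, Nid2 and Lama1 were too low to test. Lama1 rested on 22 UMIs in the Het and 3 UMIs in the KO epithelium, a ratio of Het to KO of 8.20 (95% exact interval 2.46 to 42.8, counting error only). With sex as a covariate the calls of Nid1, Nid2 and Lama1 ended and those of Col15a1, Col18a1 and Frem2 held, and without Het replicate 2, 1 member was called.

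Frem2 was the only member outside the collagens that was called higher in any of the 16 fits. In AT2 cells it was at 30.9 and 24.2 CPM in the Het libraries and at 68.4, 52.0 and 52.9 CPM in the KO libraries (log2 fold change 1.06, adjusted p = 0.0020), with no overlap, and it was called in each of 13 alternatives. In the AT2 cluster led by Cldn18, with mixed cells left out, it was at 28.7 and 31.7 against 64.7, 53.3 and 56.3 CPM (log2 fold change 0.94, adjusted p = 0.015). Over all cells it was at 21.3 and 24.0 against 37.4, 32.0 and 39.9 CPM (log2 fold change 0.69, adjusted p = 0.036). Mesothelial cells, where it is highest, gave 597 and 338 against 379, 578 and 815 CPM, which overlapped (log2 fold change 0.34, adjusted p = 0.86).

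In AT2 cells 12 of 31 members were called, 4 higher and 8 lower, against 16.9% of 13631 genes, 6.43% higher and 10.5% lower. The groups did not overlap for 19 of 31, against 49.3% of genes. Nid1 was at 54.6 and 67.2 CPM in the Het libraries and at 24.6, 22.1 and 30.5 CPM in the KO libraries (log2 fold change -1.23, adjusted p = 0.00067). Nid2 was at 23.6 and 29.4 against 8.99, 6.81 and 10.3 CPM (log2 fold change -1.60, adjusted p = 0.00044). Lama4 was at 24.5 and 27.3 against 12.3, 17.0 and 19.2 CPM (log2 fold change -0.64, adjusted p = 0.027). The stromal and vessel chains Lama2 (-0.92) and Lamc3 (-2.09) were also called lower, at 3.29 to 6.83 CPM and 0.167 to 5.63 CPM over the 5 libraries, and so was Lama1, on 21 UMIs in the Het and 3 in the KO libraries. No called gene overlapped.

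Those 6 laminin and nidogen genes could not be tested once mixed cells were left out. Nid1 then had 6 and 1 UMIs in the Het and 5, 6 and 4 UMIs in the KO libraries, and Lamc3 had 0 in all 5. The endothelial marker list of the AT2 sums, all 10 detected, was at 1464 and 1763 against 420.2, 281 and 502 CPM, and its part was not tested. Col4a1 in AT2 cells was at 892 and 936 CPM in the Het libraries and at 624, 407 and 539 CPM in the KO libraries (log2 fold change -0.81, adjusted p = 0.0068). Col4a2 was at 566 and 615 against 421, 242 and 319 CPM (log2 fold change -0.85, adjusted p = 0.013). Neither overlapped, but with mixed cells left out they were at -0.07 and -0.09 (adjusted p = 0.83 for each), and the call ended for both. With sex as a covariate Col18a1, Nid1, Nid2 and Frem2 were called and the other 8 calls ended, and without Het replicate 2, 4 were called.

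The remaining type IV chains of AT2 cells depended on the cells taken. Col4a6 was at 9.04 and 6.55 CPM in the Het libraries and at 19.8, 13.4 and 12.8 CPM in the KO libraries (log2 fold change 0.94, adjusted p = 0.021), and at 0.45 (adjusted p = 0.56) in the Cldn18 cluster with mixed cells left out. In that cluster 3 members not called in the whole class were lower. Col4a3 was at 105 and 117 against 67.3, 38.2 and 50.6 CPM (log2 fold change -1.10, adjusted p = 0.0050). Col4a4 was at 239 and 227 against 168, 114 and 122 CPM (log2 fold change -0.80, adjusted p = 0.011). Tinagl1 was at 310.3 and 329 against 254, 165 and 205 CPM (log2 fold change -0.62, adjusted p = 0.043). Each KO library was below both Het libraries for these 3. In the whole AT2 class with mixed cells left out, Col4a3 was at 0.00 and Col4a4 at 0.30, and both overlapped.

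Myofibroblasts had 4 of 25 members lower and 0 higher, against 0.476% of 9036 genes, 0.432% lower and 0.0443% higher. Besides Col15a1 these were Lamc3, Frem1 and Ntn4. Lamc3 was at 51.0 and 56.9 CPM in the Het libraries and at 21.8, 10.2 and 24.3 CPM in the KO libraries (log2 fold change -1.46, adjusted p = 0.038). Frem1 was at 63.5 and 63.8 against 25.5, 27.3 and 28.4 CPM (log2 fold change -1.23, adjusted p = 0.017). Ntn4 was at 87.7 and 69.7 against 38.2, 23.9 and 37.4 CPM (log2 fold change -1.22, adjusted p = 0.033). The groups did not overlap in any of the 4, nor in 15 of 25 members in all, against 28.3% of genes. Myofibroblast markers, all 8 detected, summed to 3121 and 4056 against 2006, 2346 and 2536 CPM, and genes of the dissociation response (10 of 10) to 15669 and 15687 against 11759.5, 9760.4 and 11564 CPM. Their part was not tested. No call stayed with sex as a covariate, without Het replicate 1, without Het replicate 2 or without KO replicate 2.

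Lamc3 was called lower in alveolar fibroblasts, myofibroblasts and AT2 cells. In all mesenchyme it was at 13.5 and 19.7 CPM in the Het libraries and at 4.77, 4.90 and 6.20 CPM in the KO libraries, with no overlap (log2 fold change -1.65, adjusted p = 0.058). No member was called over the whole mesenchyme by edgeR, where 0.00717% of 13954 genes were, with 7 of 31 members at an unadjusted p under 0.05 (1938 of 13954 genes) and 3 called by DESeq2 (1.42% of genes). With mixed cells left out 4 were lower: Lamb2 at -0.62, Lamc3 at -1.71, Hspg2 at -0.60 and Ntn4 at -1.04. In that fit 127 of 12632 genes were called, 106 of them lower.

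Adventitial fibroblasts had 0 of 23 members called by edgeR (0.196% of genes, 0.0685% higher and 0.127% lower), 10 members at an unadjusted p under 0.05 (893 of 10218 genes) and 0 called by DESeq2. Nid2 there was at 64.0 and 62.3 against 88.3, 108 and 110.5 CPM, with every KO library above both Het libraries (log2 fold change 0.70, adjusted p = 0.068). Mesothelial cells, with the largest summed share of these messages, had 0 of 26 called (0% of genes), 1 at an unadjusted p under 0.05 (775 of 10897 genes) and 0 by DESeq2. Smooth muscle had 0 of 24 (0.0562% of genes), 4 at an unadjusted p under 0.05 (867 of 10678 genes) and 0 by DESeq2. Macrophages had 1 of 15 (1.05% of genes, 0.901% lower), Col4a1 at 37.5 and 23.3 against 15.9, 11.5 and 14.3 CPM, with no overlap (4 of 15 members, against 30.1% of genes; adjusted p = 0.0499). In red-cell barcodes Col4a1 was at 27.9 CPM, above every KO value, and the call ended with sex as a covariate and with mixed cells left out.

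**Figure D4:**
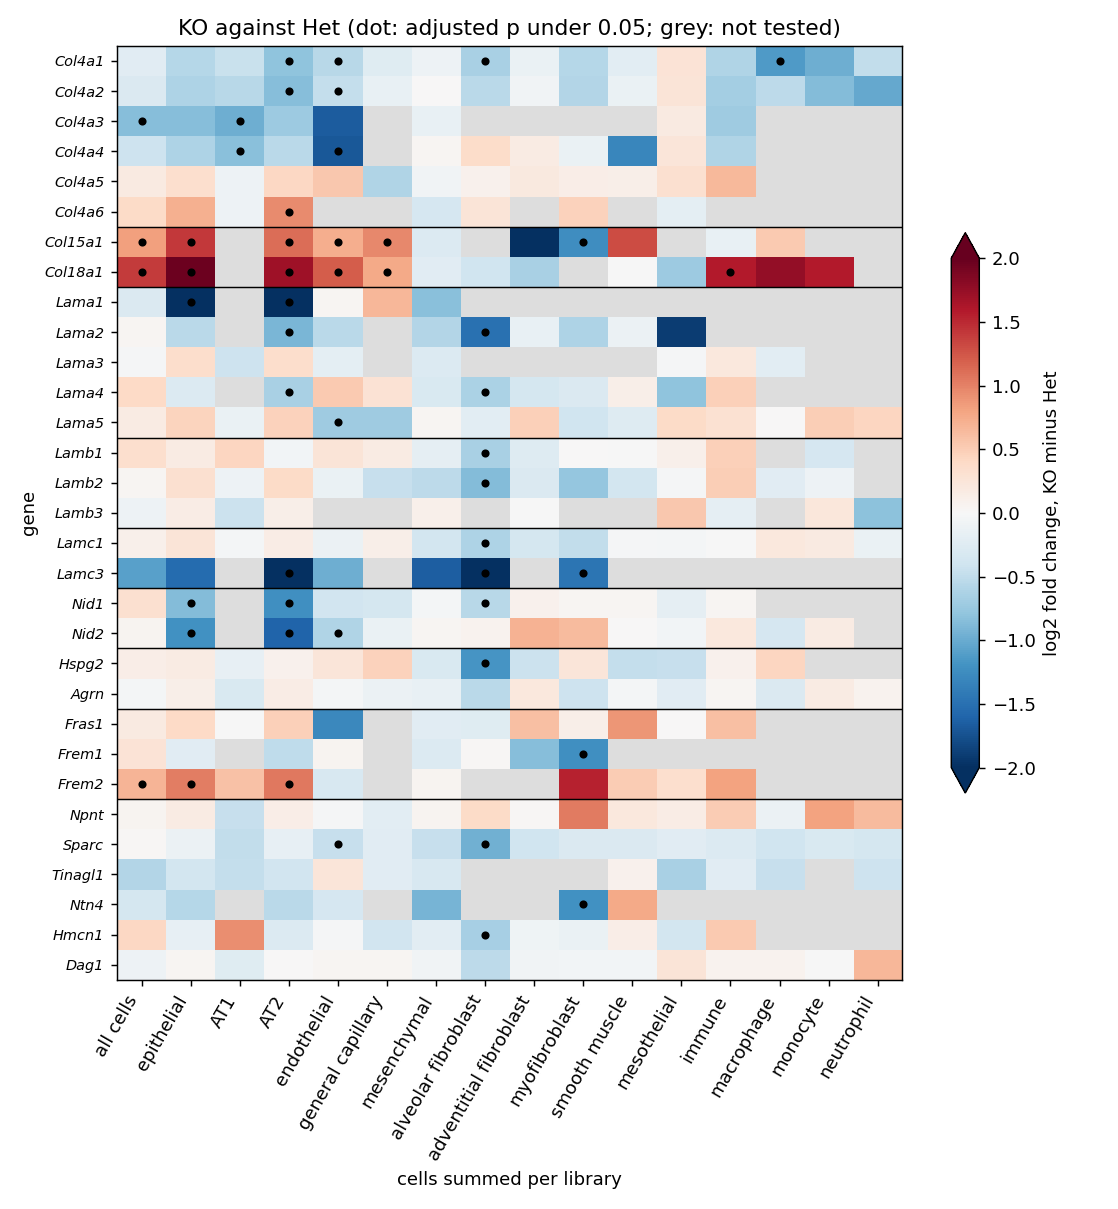
Log2 fold change of KO against Het for the 31 genes (rows) in 16 sums of cells (columns), blue where lower and red where higher in the KO, with a dot at an adjusted p under 0.05 and grey where the gene was too low to test; colours are clipped at 2 in each direction. The 2 multiplexin rows hold 5 and 6 dots on red, and the alveolar fibroblast column holds 11 dots, all on blue.

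Over the 16 fits 23 of 31 members were called at least once. The share of all genes called at least once was not counted, so the 23 have no background to be read against. Single fits called from 0% of genes, in mesothelial cells, to 16.9%, in AT2 cells. The 8 called in none were Col4a5, Lama3, Lamb3, Agrn, Fras1, Npnt, Tinagl1 and Dag1. They include the receptor dystroglycan and the epithelial laminin chains. Lama3 in AT1 cells was at 244 and 245 CPM in the Het libraries and at 195, 163 and 197 CPM in the KO libraries, with no overlap and an adjusted p of 0.21.

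Receptors of these matrix proteins were among the pathway genes that fell in the endothelium, 3 lower and 0 higher of 19 tested. Of all genes 4.34% were called lower and 2.12% higher there. Aerocyte and AT1 markers were also lower in the KO endothelial sums, as given above, and their part was not tested. The pathway lists were read in the main fits only, without sex as a covariate. Itgb5, an integrin chain for vitronectin, was at 42.9 and 40.1 CPM in the Het libraries and at 11.3, 3.46 and 6.52 CPM in the KO libraries (log2 fold change -2.56, adjusted p = 0.0035). Itga3, a laminin receptor chain, was at 32.3 and 36.4 against 13.6, 10.2 and 10.1 CPM (log2 fold change -1.61, adjusted p = 0.0017). Bcam, which binds the laminin alpha 5 chain, was at 165 and 186 against 82.8, 81.7 and 77.0 CPM (log2 fold change -1.13, adjusted p = 0.00058). None overlapped. In general capillary cells these 3 were also the receptors called, all lower, of 15 tested, where 1.46% of all genes were called lower. Of other interface components 1 was higher, Fbln1 (log2 fold change 0.93, adjusted p = 0.028), and 1 lower of 18, and the other lists had 0 calls of 20, 15 and 15 genes in the endothelium.

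In the epithelium 4 of 19 receptors were lower, where 4.47% of all genes were called lower and 2.67% higher. Itga2, a collagen receptor chain, was at 12.8 and 12.5 CPM in the Het libraries and at 4.59, 3.09 and 6.23 CPM in the KO libraries (log2 fold change -1.43, adjusted p = 0.015), with no overlap. Col6a1 and Col6a2, stromal collagens, were at -1.58 and -1.20 (adjusted p = 0.0078 and 0.018), 2 of 3 interface components lower of 24. Plod2, which hydroxylates collagen lysines, was the 1 gene higher of 21 processing genes, at 33.3 and 31.6 against 70.0, 51.4 and 54.1 CPM (log2 fold change 0.84, adjusted p = 0.014). In immune cells 3.5% of all genes were called higher and 4.74% lower. Collagen processing had 3 higher of 19 there, receptors 2 higher of 18, remodelling 1 lower of 17 and interface components 1 higher and 2 lower of 17. Among these P4ha2, Sdc4 and Lox were called at 1.45, 1.32 and 1.12, and Tgfbi, Mmp9 and Fn1 at -0.61, -0.47 and -0.37. Their levels were not compared with red-cell barcodes. No gene of the 5 lists was called in the mesenchyme as a whole, and dystroglycan glycosylation had 0 calls in each of the 4 lineages.

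The genotype difference was also set beside the miR-29 matches. In alveolar fibroblasts the 11 tested members with a match had a median log2 fold change of -0.52, with 3 called lower, and the 12 without a match had -0.64, with 8 called lower. Over all genes tested there, 1587 with a match had a median of -0.03 and 7980 without had 0.01. In AT1 cells the 11 members with a match had -0.25, with 2 called lower, and the 10 without had -0.29, with 0 called lower. Col4a5, whose message holds 3 matches, was at 0.09 in alveolar fibroblasts, and Lama2, with 0 matches, was at -1.49. These medians are a description without a test.

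**Figure D5:**
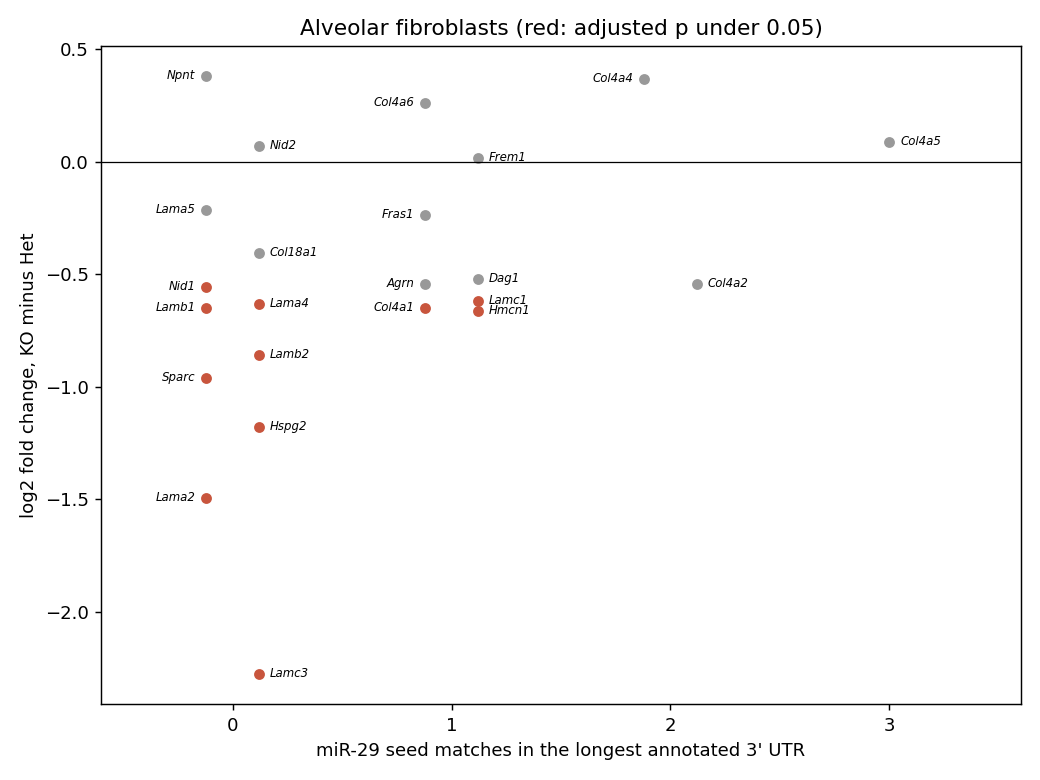
Log2 fold change of KO against Het in alveolar fibroblasts (vertical axis) of the 23 tested members by the number of miR-29 seed matches in the 3′ UTR (horizontal axis, 0 to 3, with points shifted sideways for legibility); red marks an adjusted p under 0.05. Of the 11 red points 8 are at 0 matches, and Col4a5, at 3 matches, is close to 0.

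Some counts could hold reads of a neighbour. Of 31 members, 14 overlap another counted gene, 1 of them, Lamb3, on the same strand. Whether reads were assigned by strand is not given in the sources used here, and Col18a1, which overlaps Slc19a1 on the opposite strand, is among the 14.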

How the data were processed

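Single-cell RNA libraries (10x Chromium 3′ v3.1) of 2 Zswim8 Het and 3 KO lungs were used. The authors deposited raw UMI counts per gene and barcode, produced by Cell Ranger 4.0.0 (matrix headers, per the file headers) on the mouse build mm10, per the submitters' processing notes. The annotation is not given in the sources used here.

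A cell needed 500 detected genes and a mitochondrial share up to 15%. Doublets were removed at 0.8% per 1000 cells by simulated-doublet score. Cells were clustered (scanpy 1.11.5, 2000 variable genes without the members, 30 components, 15 neighbours, Leiden resolution 1) and named from marker lists. Thresholds of the naming rule were set after seeing the clusters. Counts were summed per library and cell class, since cells are not replicates, and tested with edgeR 4.0.16 (quasi-likelihood, TMM, filterByExpr, Benjamini-Hochberg over all genes tested, two-sided). DESeq2 1.42.0, library size scaling, no filter, other cell filters, sex, a replicate block and leaving out each library were alternatives. Mixed cells carried at least 3 markers of another lineage. A class was tested where each library held 30 or more of its cells. The script was tested on simulated data, where 47.9% of genes changed by 1 on the log2 scale were recovered for alveolar fibroblasts. Intervals cover counting error only. The replicates are separate embryos.

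Values per library are given for most members called in any genotype fit, in the test by lineage or as highest in 1 lineage. Lama1, Lamb3, Fras1 and Dag1 are given by class means, log2 fold changes or summed UMIs. Of the pathway lists, the genes named are the 3 with the largest called change in each direction per lineage. In alveolar fibroblasts 3 more were named after their values were seen. The members and lists were chosen with earlier results of these data known.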

Additional observations from a re-analysis of the deposited data

Results flagged for a closer look

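The effect of the genotype differed between the 4 lineages, by edgeR's test of the interaction, for 9 of the 31 members, where 9.35% of all genes did. For 7 of them, beside Col15a1 (adjusted p = 0.0171) and Col18a1 (adjusted p = 0.000651), the values per lineage were as follows. Nid1 (adjusted p = 0.0471) had log2 fold changes of -0.87 in epithelium, -0.38 in endothelium, -0.04 in mesenchyme and 0.05 in immune cells, and Nid2 (adjusted p = 0.0251) had -1.21, -0.59, 0.03 and 0.21. Lama5 (adjusted p = 0.0349) had 0.45, -0.71, 0.03 and 0.30. Lama4 (adjusted p = 0.0345) had -0.28, 0.52, -0.30 and 0.47. Lamb2 (adjusted p = 0.0149) had 0.32, -0.13, -0.52 and 0.50. Fras1 (adjusted p = 0.0138) had 0.39, -1.29, -0.23 and 0.60. Frem2 (adjusted p = 0.0457) had 1.03, -0.32, 0.05 and 0.80. With mixed cells left out Nid1, Fras1 and Frem2 no longer passed, while Col18a1 passed in each of 7 alternatives. Sex as a covariate was not among these alternatives. The epithelial falls of Nid1 and Nid2 could not be tested with mixed cells left out. In the endothelium Nid2 was at -0.19 without aerocytes and lymphatic cells. The summed share of the members in immune cells was at the background of red-cell barcodes.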

How the results depend on the processing

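Of 201 counts of called members under the alternatives, 136 stayed within 1.5 times of the reported count, 15 were larger and 50 smaller. Of 664 refits of single called members 225 lost the call, and none of those that gave a log2 fold change changed sign. With sex as a covariate the counts fell to 0 in all cells, AT1, general capillary, macrophages, myofibroblasts and immune cells, to 1 in endothelium and alveolar fibroblasts, to 3 in epithelium and to 4 in AT2. Calls over all genes fell too: from 750 to 1 in all cells, 43 to 3 in AT1 and 192 to 11 in general capillary cells. They went from 108 to 19 in macrophages, 43 to 6 in myofibroblasts, 1145 to 350 in immune cells and 766 to 164 in endothelium. In alveolar fibroblasts they went from 405 to 70, in epithelium from 1073 to 940 and in AT2 from 2309 to 727. By DESeq2 all cells gave 7, mesenchyme 3 and myofibroblasts 2, where 2105, 198 and 47 of all genes were called. Without a filter alveolar fibroblasts gave 5, mesenchyme 2 and adventitial fibroblasts 2. With mixed cells left out mesenchyme gave 4, adventitial fibroblasts 1, macrophages 0 and the count highest in 1 lineage 22. Library size scaling gave 1 in general capillary cells and 0 in macrophages. Among calls over all genes, that scaling moved the higher ones from 876 of 2309 to 1138 of 2325 in AT2 and from 486 of 1145 to 656 of 1065 in immune cells, and in neutrophils the median of all genes was 0.01 before and 0.135 after it. Added after seeing the data, endothelium without aerocytes and lymphatic cells gave 2, and the Cldn18 cluster of AT2 with mixed cells left out gave 6.

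With the replicate number as a block the counts were 0 in all cells, 11 in epithelium, 1 in endothelium, 3 in immune cells, 4 in AT1, 1 in general capillary cells and 10 in myofibroblasts. Over all genes the block moved the calls from 43 to 462 in myofibroblasts and from 750 to 15 in all cells. Deviations of same-numbered libraries from their group means correlated at -0.29 to 0.19 over the 2 pairs in all cells and the 4 lineages. With 2 Het libraries the deviations mirror each other, so these values cannot decide whether the number is a pairing. The main fits did not use it as a pairing.

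Leaving out 1 library gave 0 to 4 in all cells, 1 to 6 in epithelium, 0 to 10 in endothelium, 0 to 1 in mesenchyme, immune cells, macrophages and monocytes, 0 to 2 in AT1 and adventitial fibroblasts, 4 to 16 in AT2, 0 to 3 in general capillary cells, 2 to 13 in alveolar fibroblasts, 0 to 5 in myofibroblasts, 3 to 6 for the test by lineage and 13 to 14 for the count highest in 1 lineage. Leaving out a Het library leaves 1, which is assumed to vary like the KO libraries. The alternative without mixed cells was not run for mesothelial cells or for all cells. On data simulated with log2 changes of 1, 28.6% of the changed genes were recovered in mesothelial and 84.5% in immune sums.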
